A study of Homo sapiens with 6 samples.

Results

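The MHC class I antigen presentation genes examined here were 9 genes of the 60609 in each deposited file. They were chosen by symbol, not by level. HLA-B, HLA-C, HLA-E and HLA-F encode class I heavy chains, B2M encodes the light chain, and TAP1, TAP2, TAPBP and ERAP1 act in peptide transport, loading and trimming. RNA sequencing of HEK293, a human embryonic kidney cell line that carries adenovirus DNA, gave 3 STAT5B knockout libraries and 3 wild-type libraries. Knockout cells were produced with CRISPR/Cas9, and the protocol says that clones with both STAT5B alleles mutated were picked by sequencing and blotting. The labels do not say how many clones were used, and they also mention GS knockout clones without explaining the name. Both groups grew in the same serum-containing medium, and no cytokine treatment is named in the labels. All 6 sample titles carry the word Sham, which the labels do not explain. What sets a picked clone apart from wild-type cells and what loss of STAT5B does cannot be told apart. The labels speak of triplicates but not of separate cultures, so each p-value covers the spread among these libraries alone, which may be technical.

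A class I molecule holds a peptide between the outer domains of its heavy chain and needs B2M, the invariant light chain, to fold and reach the cell surface. Peptides made by the proteasome enter the endoplasmic reticulum through TAP, a transporter built from TAP1 and TAP2. Tapasin, the product of TAPBP, bridges TAP to empty class I molecules, and the aminopeptidase ERAP1 trims peptides to their final length. HLA-B and HLA-C present peptides to T cells, HLA-E displays mainly leader peptides of other class I chains to natural killer cells, and HLA-F is a less variable class I chain. Most nucleated cells express these genes at a basal level, and interferons raise them through STAT2 and IRF proteins, among others. STAT5B is activated mainly by growth hormone, prolactin and several interleukins.

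The promoters of the 3 genes that passed the test and of HLA-B are shown because the results turn on their transcripts, and IRF and NF-kB factors are known to act on class I promoters. Each sequence is the stretch of 250 bases before a transcription start (RefSeq, build GRCh38.p14), given 5′ to 3′ on the gene's own strand. Capitals mark every match, on either strand, to AANNGAAA (the core bound by IRF factors), an NF-kB form (GGGA, any 4 bases, then CC), CCAAT (the box bound by NF-Y) or TTCNNNGAA (the paired STAT site).
B2M, chr15:44711267-44711516, plus strand: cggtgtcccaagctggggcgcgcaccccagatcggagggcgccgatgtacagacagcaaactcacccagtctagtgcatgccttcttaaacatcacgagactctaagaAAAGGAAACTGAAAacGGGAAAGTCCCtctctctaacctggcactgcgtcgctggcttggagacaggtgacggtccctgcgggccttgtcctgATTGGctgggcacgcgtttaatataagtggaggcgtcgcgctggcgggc
TAP1, chr6:32853705-32853954, minus strand: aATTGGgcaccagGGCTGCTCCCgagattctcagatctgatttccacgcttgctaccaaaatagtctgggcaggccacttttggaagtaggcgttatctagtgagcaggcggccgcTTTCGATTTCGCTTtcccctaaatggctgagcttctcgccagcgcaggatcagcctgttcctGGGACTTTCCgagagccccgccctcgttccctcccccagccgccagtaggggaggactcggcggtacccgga
TAP2, chr6:32838740-32838989, minus strand: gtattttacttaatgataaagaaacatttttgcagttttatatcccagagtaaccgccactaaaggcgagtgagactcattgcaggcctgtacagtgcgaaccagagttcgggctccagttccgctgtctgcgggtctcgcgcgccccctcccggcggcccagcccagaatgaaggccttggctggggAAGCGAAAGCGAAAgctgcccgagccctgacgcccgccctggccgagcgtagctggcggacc
HLA-B, chr6:31357180-31357429, minus strand: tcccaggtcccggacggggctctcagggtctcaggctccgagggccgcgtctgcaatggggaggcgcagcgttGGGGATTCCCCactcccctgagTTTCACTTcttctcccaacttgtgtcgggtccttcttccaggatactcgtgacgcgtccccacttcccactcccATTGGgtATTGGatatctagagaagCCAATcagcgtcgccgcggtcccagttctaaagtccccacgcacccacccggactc

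In B2M, overlapping IRF cores began 142 and 136 bases before the start. Shortly downstream of them, overlapping NF-kB matches began at 126 and 125 bases. In TAP1 the IRF cores began at 134 and 128 bases, on the opposite strand, and in TAP2 the same IRF letters began at 62 and 56 bases. In HLA-B overlapping NF-kB matches lay upstream of a single IRF core that began 155 bases before the start. Windows were found for 8 of the 9 genes, HLA-E having none in the table. With the window nearest the GENCODE gene start taken for each gene, the IRF core stood in 7 of 8, the NF-kB form in 6 of 8, the CCAAT box in 6 of 8 and the paired STAT site in 0 of 8. Among all 35116 windows of this length the shares were 20.3%, 22.6%, 32.0% and 6.57% in the same order. A second TAP1 window, further from that start, held TTCTGGGAA, which matches the paired STAT letters. The motifs were chosen after the sequences were read. A match is a description of letters and not evidence that a factor binds.

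Library totals ran between 17494958 and 21099813 estimated counts in the knockout and between 17686407 and 20279181 in the wild type. STAT5B itself was still transcribed, with 63.1, 61.8 and 60.5 CPM (counts scaled to a library total of 1000000) in knockout libraries, against 70.1, 64.6 and 69.4 CPM in wild-type libraries, a log2 fold change of −0.14 that passed the test (edgeR adjusted p = 0.0468) but held in only 4 of 16 alternative settings. A transcript level does not check a small mutation. Of 11 genes listed as marking HEK293 cells 10 were high enough to test. PAX8 was not, with 0 counts over the knockout libraries and 1 over the wild-type libraries. The 11 genes summed to 936 to 954 TPM in the knockout and 1063 to 1094 TPM in the wild type. TPM is a level per transcript length, scaled to 1000000 per library. VIM made up most of the sum, with means of 610 TPM in the knockout and 599 TPM in the wild type. NEFM had means of 99.7 TPM in the knockout and 230 TPM in the wild type. There were 2 rises (EYA1 and VIM, log2 fold changes 1.12 and 0.12) and 2 falls (NEFM and CDH2, −1.14 and −0.25). The part of these changes in the class I results was not tested. The 9 class II genes, which mark professional antigen-presenting cells, summed to 12.2 to 13.7 TPM in the knockout and 14.6 to 16.4 TPM in the wild type, and CD74, the class II invariant chain, reached at most 0.116 TPM in the knockout and 0.031 TPM in the wild type. The 10 blood cell markers summed to 1.24 to 2.71 TPM in the knockout and 1.89 to 2.29 TPM in the wild type, and PTPRC, the common leukocyte antigen, had a count of 0 in every library, which allows at most 0.171 CPM. In bulk RNA, fewer cells that express a gene and less RNA per cell cannot be told apart.

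Across the class I genes, the light chain transcript rose and both TAP subunits fell in the knockout by 0.793- to 1.12-fold, while no heavy chain passed the test. All 9 genes were above the low-count filter, and at an adjusted p under 0.05 in edgeR's quasi-likelihood test 1 rose, 2 fell and 6 did not pass. Over all 15958 genes tested 23.4% were called, 12.1% as rises and 11.4% as falls, and with 9 genes a count of 3 is read as no more than that background. The median log2 fold change was 0.029 for the 9 genes and 0.0063 for all genes tested. CPM ranges of the groups did not overlap for 3 of the 9 genes, namely B2M above and TAP1 and TAP2 below, against 38.6% of all genes (19.9% with the knockout above and 18.7% with it below). The exact permutation test of each gene's 6 values cannot go below p = 0.1, which B2M, TAP1 and TAP2 reached.

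**Figure D1:**
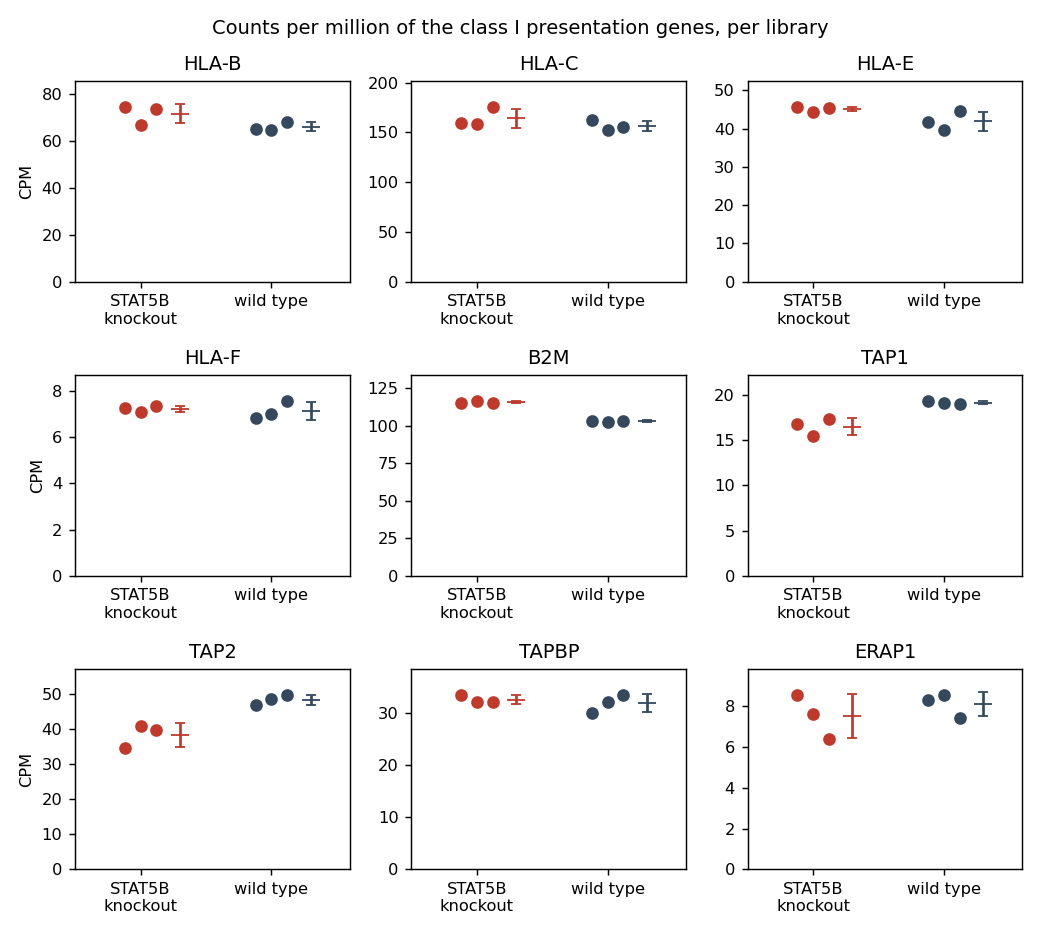
Level of each gene in CPM (vertical axes, each starting at 0) in the 3 STAT5B knockout libraries (red) and the 3 wild-type libraries (dark). Points are libraries and the bars beside them are the mean ± SD. B2M lies higher in every knockout library than in any wild-type library, TAP1 and TAP2 lie lower, and the other 6 genes overlap.

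**Figure D2:**
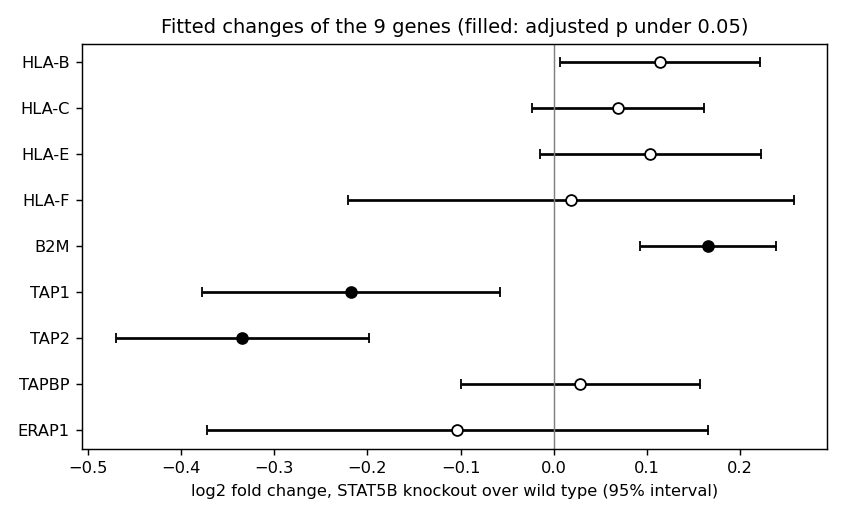
Fitted log2 fold change, STAT5B knockout over wild type (horizontal axis), with its 95% interval from edgeR, for each gene. Filled points have an adjusted p under 0.05. B2M is the filled point above 0, and TAP1 and TAP2 are the filled points below 0.

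HLA-B (ENSG00000234745, minus strand of chromosome 6, 31269491 to 31357188, hg38) encodes the most variable classical heavy chain. It had 74.2, 66.8 and 73.5 CPM in knockout libraries, against 65.2, 64.6 and 68.2 CPM in wild-type libraries. Knockout replicate 2 lay within the wild-type range, and the other knockout libraries lay above it. The log2 fold change was 0.11 (SE 0.050, 95% interval 0.0068 to 0.22) with an edgeR adjusted p of 0.118, which became 0.0336 when knockout replicate 2 was left out.

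HLA-C (ENSG00000204525, minus strand of chromosome 6, 31268749 to 31272130), the main class I ligand of killer cell immunoglobulin-like receptors, was the most abundant of these heavy chains. It had 159, 158 and 175 CPM in the knockout and 162, 152 and 155 CPM in the wild type, with overlapping ranges. Its log2 fold change was 0.069 (95% interval −0.023 to 0.16, edgeR adjusted p = 0.278). HLA-E (ENSG00000204592, plus strand of chromosome 6, 30489467 to 30494205) had 45.6, 44.4 and 45.3 CPM in the knockout and 41.6, 39.5 and 44.5 CPM in the wild type. Only wild-type replicate 3 reached the knockout range, and the log2 fold change was 0.10 (95% interval −0.015 to 0.22, edgeR adjusted p = 0.202). HLA-F (ENSG00000204642, plus strand of chromosome 6, 29722775 to 29738528) was low, at 7.10 to 7.37 CPM in the knockout and 6.83 to 7.58 CPM in the wild type. Its log2 fold change of 0.019 had a 95% interval of −0.22 to 0.26 and an edgeR adjusted p of 0.927.

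Thus 0 of the 4 heavy chains passed edgeR. At an unadjusted p under 0.05 there was 1, HLA-B, and DESeq2 and limma-voom called 0. All 4 fitted changes were above 0, with a median of 0.086.

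Reads of heavy chain genes can be shared, and their sum is less exposed to that. Estimated counts of HLA-B, HLA-C and HLA-E were not whole numbers in any of the 6 libraries, while those of HLA-F, B2M, TAP1, TAPBP and ERAP1 were whole in all 6. The annotated span of HLA-B also overlaps HLA-C. The summed level of the 4 heavy chains was 286, 276 and 302 CPM in the knockout, against 276, 263 and 276 CPM in the wild type. The groups were apart on this scale by a narrow margin, with a log2 difference of 0.085. Per length the sum was 366, 346 and 388 TPM in the knockout and 364, 351 and 366 TPM in the wild type, where the ranges overlapped and the log2 difference was 0.024. Sums over chosen genes were not tested.

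B2M (ENSG00000166710, plus strand of chromosome 15, 44711487 to 44718877) rose. Its level was 115.4, 116.6 and 115.3 CPM in knockout libraries, against 103.5, 102.7 and 103.5 CPM in wild-type libraries. Libraries of a group lay very close together, and every knockout library was above every wild-type library. The means were 116 ± 0.713 CPM in the knockout and 103 ± 0.455 CPM in the wild type (SD, n = 3 each), a 1.12-fold change (95% interval 1.07 to 1.18) with an edgeR adjusted p of 0.0029. The call held when any single library was left out, with log2 fold changes of 0.16 to 0.17. It did not hold once trends with length and GC were removed in each library, which took the log2 fold change to 0.0084 (adjusted p = 0.910). B2M is a short gene, with deposited effective lengths of 394, 409 and 407 bases in the knockout and 402, 406 and 402 bases in the wild type. On log2(TPM + 1) the change was 0.072 (limma adjusted p = 0.205), on a scale where the median of all genes was −0.059.

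B2M exceeded the heavy chain transcripts per length. The ratio of B2M to the 4 summed heavy chains, in TPM, was 1.22, 1.24 and 1.13 in the knockout and 1.16, 1.17 and 1.14 in the wild type. Knockout replicate 3 was below all wild-type libraries and the other knockout libraries were above them.

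TAP1 (ENSG00000168394, minus strand of chromosome 6, 32845209 to 32853978) fell slightly. It had 16.8, 15.5 and 17.3 CPM in knockout libraries, against 19.4, 19.1 and 19.0 CPM in wild-type libraries. Every knockout library was below every wild-type library, and the knockout values were the more spread out. The change was 0.860-fold (95% interval 0.770 to 0.961), or −0.22 on the log2 scale with SE 0.074 (adjusted p = 0.0489 in edgeR). This value lies just under the threshold, and TAP1 passed in 4 of 16 alternative settings, with log2 fold changes of −0.29 to −0.17 and adjusted p of 0.0391 to 0.199 among them. DESeq2 gave 0.179, and leaving out any single library other than knockout replicate 3 ended the call (0.0880 to 0.168).

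TAP2 (ENSG00000204267, minus strand of chromosome 6, 32821833 to 32838780), the partner subunit encoded beside TAP1, fell the most. It had 34.7, 40.9 and 39.7 CPM in knockout libraries, against 46.9, 48.7 and 49.9 CPM in wild-type libraries. The groups were well apart, and knockout replicate 1 was the lowest. The change was 0.793-fold (95% interval 0.722 to 0.871) with an edgeR adjusted p of 0.0016, and it held when any single library was left out (adjusted p 0.00218 to 0.0096) and in DESeq2 (log2 fold change −0.34).

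The TAP2 fall depended on the scale. Per length its level was 24.0, 19.2 and 12.6 TPM in the knockout and 22.1, 19.5 and 21.0 TPM in the wild type. Knockout replicate 1, lowest in CPM, was the highest of all libraries in TPM, and knockout replicate 3 the lowest. The effective length deposited for TAP2, which can vary with the estimated mix of its transcripts, was 2209, 3213 and 4910 bases in the knockout and 3486, 4057 and 3849 bases in the wild type. It varied by 2.22-fold within the knockout and 1.16-fold within the wild type. With effective-length offsets the log2 fold change was −0.12 (edgeR adjusted p = 0.742), and on log2(TPM + 1) it was −0.20 (limma adjusted p = 0.558). Which transcripts of TAP2 were present cannot be read from values per gene.

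**Figure D3:**
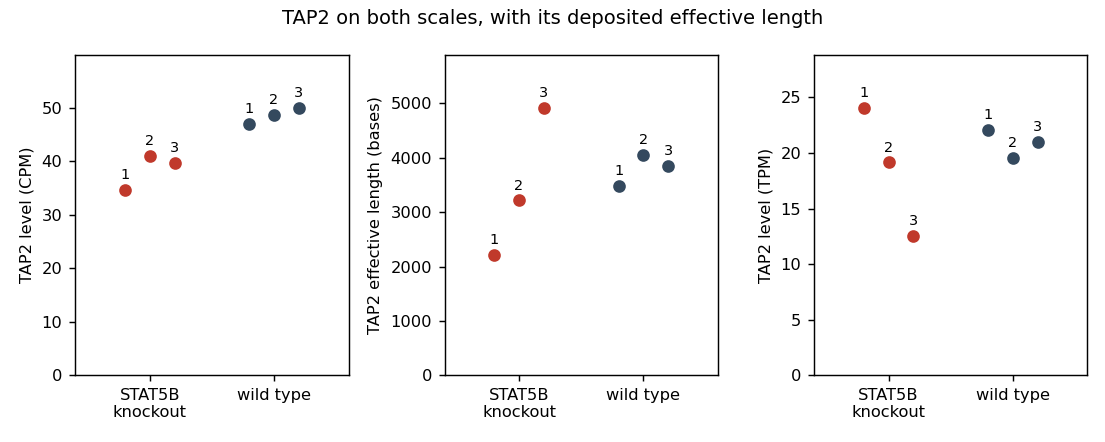
TAP2 in each library, numbered by replicate, as CPM (left), deposited effective length in bases (centre) and TPM (right), with STAT5B knockout in red and wild type dark. In CPM all knockout points lie below the wild-type points, the knockout effective lengths run from 2209 to 4910 bases, and in TPM the groups overlap.

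TAPBP (ENSG00000231925, minus strand of chromosome 6, 33299694 to 33314387), which encodes the loading chaperone tapasin, did not pass. It had 33.4, 32.1 and 31.9 CPM in the knockout and 29.9, 32.1 and 33.4 CPM in the wild type, with fully overlapping ranges. Its log2 fold change of 0.029 had a 95% interval of −0.100 to 0.16 (edgeR adjusted p = 0.778). ERAP1 (ENSG00000164307, minus strand of chromosome 5, 96760810 to 96808100) had 8.52, 7.63 and 6.40 CPM in the knockout and 8.29, 8.55 and 7.43 CPM in the wild type. Knockout replicate 3 was the lowest of the 6, and the ranges overlapped. Its log2 fold change was −0.10 with a 95% interval of −0.37 to 0.17 (edgeR adjusted p = 0.605), or 0.772- to 1.12-fold.

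**Figure D4:**
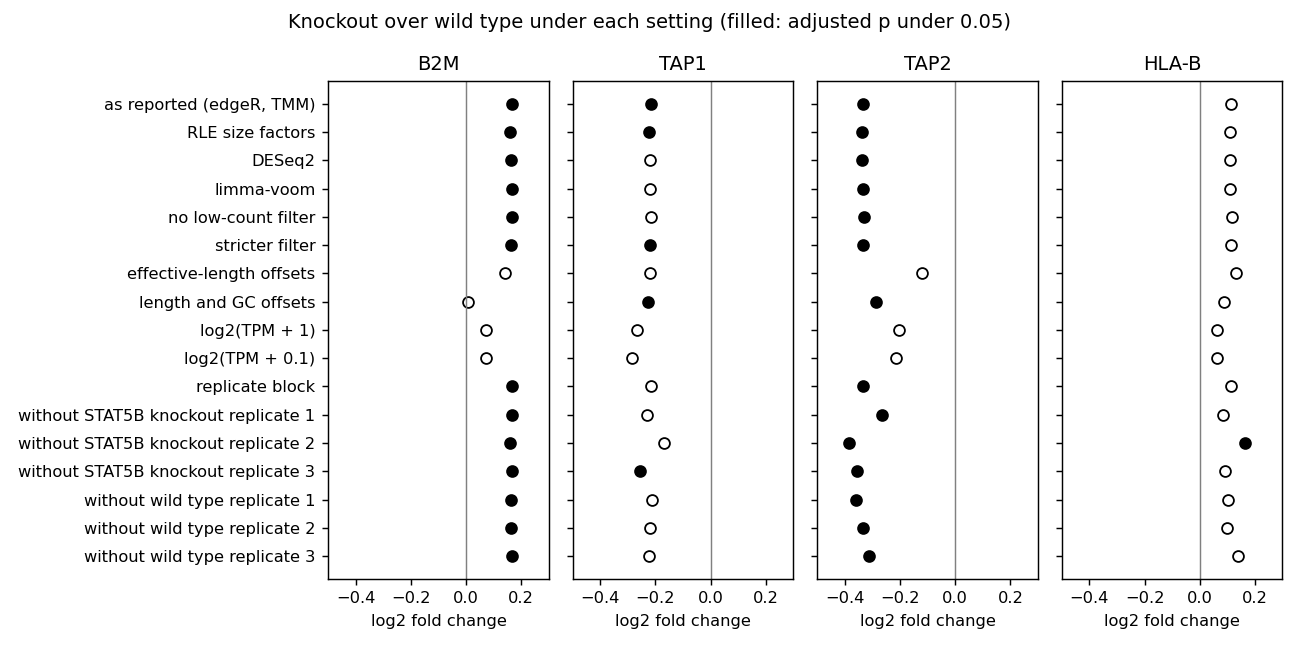
Log2 fold change, STAT5B knockout over wild type (horizontal axes), of B2M, TAP1, TAP2 and HLA-B under the reported setting and each alternative (rows). Filled points have an adjusted p under 0.05. B2M is filled in 12 of 16 alternatives, TAP2 in 13, TAP1 in 4 and HLA-B in 1.

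Levels per length spread widely. Over the 6 libraries B2M averaged 428 TPM, HLA-C 215 TPM, HLA-B 97.2 TPM and HLA-E 37.1 TPM, each with a range apart from the next. TAP2, TAPBP, HLA-F and TAP1 followed at 19.7, 16.0, 13.9 and 12.4 TPM, and each overlapped its neighbour in that order. ERAP1 was lowest at 2.97 TPM, 144-fold under B2M. The TPM ratio of TAP1 to TAP2 was 0.480, 0.511 and 0.968 in the knockout and 0.620, 0.715 and 0.623 in the wild type. The high value of knockout replicate 3 goes with its long TAP2 effective length.

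Medians of the genes around the class I genes lay near 0. Within 1 Mb of B2M, 22 other tested genes had a median log2 fold change of 0.039, with 1 rise and 1 fall, against 0.17 for B2M. Around TAP2, 55 tested genes had a median of 0.015, with 2 rises and 5 falls, against −0.33 for TAP2, and the 53 around TAP1 had the same median, with 2 rises and 4 falls. The 81 genes around HLA-B had a median of 0.0015, and the 7 around ERAP1 a median of −0.033. These windows overlap on chromosome 6. PSMB9, the immunoproteasome gene that starts beside TAP1 on the opposite strand, was below the test's filter, with 2 counts in each knockout library, against 4, 5 and 0 in the wild type.

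By the rule of highest Pearson correlation of log2 CPM over the 6 libraries, among 10162 genes of at least 10 CPM, the genes most like B2M were YWHAE, ARPC3 and PMPCB (r = 0.999, 0.999 and 0.998). YWHAE encodes a 14-3-3 protein, ARPC3 an actin-nucleating Arp2/3 subunit and PMPCB a mitochondrial peptidase subunit. Those most like TAP1 were AKT2, SNHG20 and QSOX2 (r = 0.997, 0.995 and 0.994). With 6 libraries in 2 groups such values are common, and 1147 genes had r over 0.9 with B2M and 673 with TAP1.

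Genes around the pathway went both ways. In 9 lists with 72 genes in all, 62 were tested, 13 rose and 14 fell, with a median log2 fold change of −0.025. Over all genes tested 12.1% rose and 11.4% fell, or 23.4% in all, and this is the background for each count below. The lists were chosen with earlier results known and hold 3 to 12 tested genes each, so nothing particular to a list is read from its count. Among class I-like proteins 2 of 8 tested rose, ULBP2 among them, and 1 fell. ULBP2, a stress-induced ligand of the natural killer receptor NKG2D, had 7.27, 8.40 and 8.17 CPM in the knockout, against 5.53, 4.98 and 5.27 CPM in the wild type. It was 1.51-fold higher (edgeR adjusted p = 0.00283), passed in all 16 alternatives and was apart between groups. FCGRT, the neonatal Fc receptor heavy chain that pairs with B2M, was 8.10 ± 1.44 CPM in the knockout and 11.3 ± 1.04 CPM in the wild type (SD, n = 3 each). Its log2 fold change was −0.49 (edgeR adjusted p = 0.013), and the call was lost in 7 of 16 alternatives, among them those without knockout replicate 1 or 2 or wild-type replicate 1 or 2 (adjusted p 0.0528 to 0.0602).

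Of 6 tested loading chaperones and glycan-editing genes 1 rose and 3 fell. CALR, the lectin chaperone calreticulin of the peptide-loading complex, had 505, 514 and 522 CPM in the knockout, against 585, 607 and 593 CPM in the wild type. Its log2 fold change was −0.21 (SE 0.031, edgeR adjusted p = 2.31e-04), with groups apart, and passed in all 16 alternatives. GANAB and UGGT1, a glucosidase subunit and the glucosyltransferase that tags misfolded glycoproteins, fell by 0.13 each, and the UGGT1 change was 0.0040 with effective-length offsets. The chaperone HSPA5 rose by 0.16 (edgeR adjusted p = 0.0412). Its call was lost in 8 of 16 alternatives, with DESeq2 (adjusted p = 0.180) and without knockout replicate 1 (log2 fold change 0.078, edgeR adjusted p = 0.179) or any single wild-type library (0.0605 to 0.159) among them. The UGGT1 call was also lost in 8 of 16 and the GANAB call in 5, each in 4 of the 6 settings that left out a library. PDIA3 and CANX, the other chaperones of class I folding, had log2 fold changes of 0.037 and −0.032 and did not pass (edgeR adjusted p = 0.423 and 0.500).

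Of 6 tested cytosolic and other peptidases 1 rose and 3 fell. NRDC rose by 0.31, BLMH, a bleomycin hydrolase that can trim peptides, fell by 0.22, LNPEP by 0.19 and NPEPPS by 0.14 on the log2 scale. The LNPEP call was lost in 7 of 16 alternatives, 3 of them leaving out a library. ERAP2, the close relative of ERAP1, was too low to test and is named after its values were seen, with 0 counts in each knockout library against 1, 4 and 17 in the wild type. Of 4 tested immunoproteasome and activator genes 1 rose and 1 fell. PSMB10, an immunoproteasome subunit, had 3.48 ± 0.654 CPM in the knockout and 2.25 ± 0.203 CPM in the wild type (SD, n = 3 each; edgeR adjusted p = 0.0448, lost in 9 of 16 alternatives), and PSME3 fell by 0.12. PSMB8 and PSMB9, the other immunoproteasome subunits listed, had at most 0.278 TPM in the knockout and 0.656 TPM in the wild type. Of the 3 constitutive catalytic subunits PSMB6 rose by 0.22 and 0 fell in edgeR. With p unadjusted, or in limma-voom or DESeq2, 0 fell as well.

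Regulators of class I transcription were split as well. Of 9 tested genes of the class I promoter complex ATF1 and NFYC rose (by 0.30 and 0.20 on the log2 scale) and CREB1 fell (by 0.15). NLRC5, the class I transactivator, was very low at 0.625 CPM in the knockout and 0.857 CPM in the wild type (edgeR adjusted p = 0.422). Of 12 interferon regulators IFNGR1 and IFNGR2 rose by 0.17 each, and JAK1, STAT2 and TYK2 fell by 0.26, 0.26 and 0.24. IRF1 had a log2 fold change of 0.091 and did not pass (edgeR adjusted p = 0.596). Of 5 NF-kB subunits RELB and NFKB2 rose (by 0.66 and 0.58) and RELA fell by 0.18. Of 9 genes of class I turnover and export SEC24D, a vesicle coat subunit, rose by 0.33, and TMEM127 fell by 0.21. Of the 27 genes called in these lists, ULBP2, CALR, BLMH and JAK1 passed in all 16 alternative settings, while PSMB10, CREB1 and IFNGR2 passed in 7 each and PSME3, IFNGR1 and RELB in 11 or 12.

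**Figure D5:**
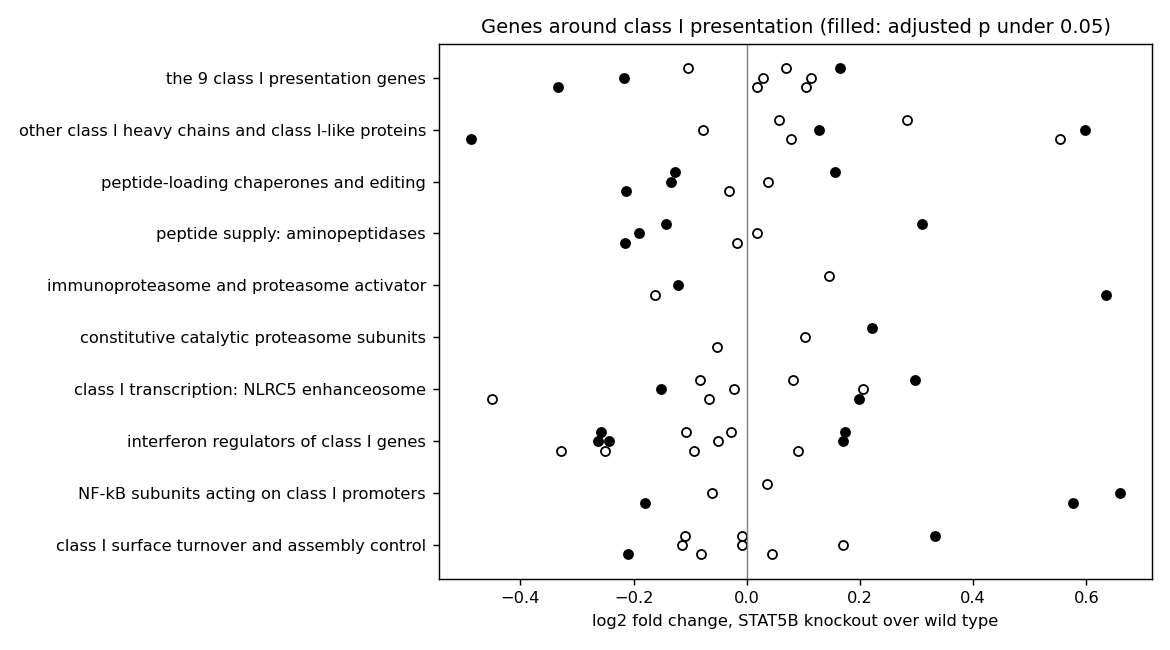
Log2 fold change, STAT5B knockout over wild type (horizontal axis), of the 9 class I presentation genes (top row) and of tested genes in 9 lists around them (other rows). Each point is a gene, filled where the adjusted p was under 0.05. Filled points lie on both sides of 0 in most rows, and the 9 class I presentation genes span −0.33 to 0.17.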

How the data were processed

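mRNA libraries of HEK293 cells were compared, 3 STAT5B knockout and 3 wild type, grouped by the genotype label. Per the submitters' processing notes, FastQC, fastp, DRAGEN and Picard and the build hg38 were used, with no versions or roles, and the annotation release and the way reads were assigned were not given in the sources used here. Per the file headers, the authors deposited estimated counts, TPM and effective lengths per gene. Of the deposited estimated counts 7.12% to 7.64% were not whole, and they were rounded before count tests. TPM were used as deposited by the authors.

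Symbols came from a name table (60340 of 60609 identifiers found) and positions from GENCODE release 29. The test was edgeR 4.0.16 (R 4.3.3) with TMM scaling, filterByExpr (minimum count 10, minimum total 15) and the quasi-likelihood F test, adjusted by Benjamini-Hochberg over 15958 genes, threshold 0.05. It was tested on simulated data. CPM use TMM-scaled library sizes. Intervals of fold changes are 95% from the same fit. The floor for a count of 0 was 3 counts and covers counting error only. Exact permutation tests were two-sided. No 2 libraries of a group agreed within sampling noise (chi-square per degree of freedom 2.45 to 7.50).

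The members and lists were chosen with earlier results of these data known. The named genes were all members, all called genes of a list with at most 5, STAT5B, and the 3 genes most correlated with B2M and with TAP1. Further genes were named after their values were seen, and some genes of the lists are counted but not reported here. The alternatives tried were DESeq2 1.42.0, RLE scaling, limma-voom (limma 3.58.1), no and stricter filters (1 CPM in 3 libraries), effective-length offsets, offsets for length and GC content (splines of 5 degrees of freedom), limma on log2(TPM + 1) and log2(TPM + 0.1), a replicate block, and leaving out each library.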

Additional observations from a re-analysis of the deposited data

How the results depend on the processing

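Over all genes 891 rose and 844 fell when effective lengths were used as offsets, 488 and 1135 on log2(TPM + 1), and 483 and 1139 on log2(TPM + 0.1), where 30.1% and 29.8% of calls were rises against 51.4% in the reported setting. Of the 9 class I genes, 1 fell in place of 2 with DESeq2, limma-voom, no low-count filter or the replicate block. On both TPM scales and with effective-length offsets 0 rose and 0 fell, and with length and GC offsets 0 rose. Leaving out each library gave 1 to 2 rises and 1 to 2 falls. Among the 62 other genes tested, rises and falls were 4 and 5 with effective-length offsets and 2 and 7 on both TPM scales, and 8 to 12 and 9 to 12 when each library was left out. Directions turned for HLA-C on both TPM scales (−0.017 each), for HLA-F with length and GC offsets (−0.033) and without wild-type replicate 1 (−0.015, range over libraries left out −0.015 to 0.064), for TAPBP with effective-length offsets (−0.019), on both TPM scales (−0.079 with a pseudocount of 1 and −0.084 with 0.1) and without wild-type replicate 1 (−0.015, range −0.015 to 0.066), and for UGGT1 with effective-length offsets (0.0040). None of these values was called. Medians of neighbouring genes moved within 500 kb for HLA-B (−0.038), HLA-C (−0.036) and HLA-F (0.061), and within 2 Mb for HLA-F (−0.017), B2M (−0.038), TAP1 (−0.013) and TAP2 (−0.013). The cause of these changes was not tested.

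Replicate numbers did not pair the libraries. Deviations of same-numbered libraries correlated at 0.0038, 0.10 and 0.042, and not every library correlated best with its own number. With the replicate block 3660 genes were called in place of 3742, and the adjusted p of TAP1 was 0.0668. HLA-F, ERAP1 and TAP1, with the fewest counts among the 9 genes, had the widest intervals.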
